A study of Danio rerio with 4 samples.

Results

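The 128 zebrafish genes described here have symbols of the Wnt, BMP, TGF-β, activin, FGF, Notch, Hedgehog, HGF, VEGF and Yap pathways. Of these, 13 match by letters only and do not encode the family member that those letters name. Whether the 13 act on a pathway was not assessed. All 128 were found by a rule on the gene symbol, among 11021 genes in a table of expression values. The rule uses no measured value, but it was chosen with earlier results of these data known. The table covers livers taken from larval zebrafish 5 days after fertilisation (5 dpf), measured by sequencing of polyadenylated RNA. The livers carried Tg(fabp10:has.UHRF1-GFP) in the line labelled high, in which the hepatocyte promoter of fabp10 drives human UHRF1 fused to GFP. UHRF1 is a protein that guides maintenance DNA methylation. The study's controls were age-matched Tg(fabp10:nls-mCherry) livers, with nuclear mCherry under the same promoter. The labels name 2 libraries of each group, and only the 2 UHRF1-high libraries, A and B, were analysed here. No value below is a change against the control.

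These pathways pass signals between cells by secreted or membrane-bound ligands, which bind receptors that act on a small set of nuclear factors. Wnt acts through Frizzled and Lrp receptors and β-catenin, and BMP and TGF-β act through receptor kinases and Smad proteins. FGF, HGF and VEGF act through receptor tyrosine kinases. Notch is itself a receptor whose cleaved inner part goes to the nucleus, and Hedgehog acts through Smoothened and Gli. In the embryo, Wnt, BMP and FGF signals specify the liver from the endoderm, Notch directs bile duct formation, and BMP signals control hepcidin, the hormone of iron balance.

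Each value is the authors' quantile-normalised value, called the deposited value below. Such a value reports the rank of a gene within its library, and sequencing depth is unknown. A division by transcript length is neither stated nor denied in the labels or the table, so an order between different genes may include their length. Means are over libraries A and B with their SD (n = 2). Differences were computed as log2(A + 1) minus log2(B + 1), and "at least 2-fold" means at least 2-fold on that scale. Every fold below is therefore a ratio of values with 1 added, which understates differences of low genes. It is not the plain ratio of the deposited values printed beside it. A and B belong to 1 group, so there is no test between them and no p-value. Nothing in the labels ties A and B to separate clutches or animals, so their spread may be technical.

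The 10 hepatocyte markers were all measured, and apoa1b, apoa2 and fabp10a held the first 3 ranks of both libraries, which quantile normalisation gives the same values. Of the 10, 2 were at least 2-fold higher in A: tfa had 12758 in A and 2207 in B, and serpina1 had 4796 and 1567. The libraries also differed in genes of other cell types. Over all genes with a mean of at least 1, 7.07% were at least 2-fold higher in A and 6.83% in B. Of 8 measured exocrine pancreas markers, 8 were at least 2-fold higher in A, with a summed deposited value of 9249 in A and 1002 in B. Of 8 skeletal muscle markers, 8 were at least 2-fold higher in B, with sums of 233 and 2820. Skin markers (4 of the 5 measured), macrophage and neutrophil markers (5 of 5), biliary markers (4 of 5) and stellate markers (3 of 4) were also higher in B. Their sums were 112 and 299 for skin, 23.4 and 98.4 for macrophages and neutrophils, 1076 and 2559 for the biliary list, and 23.9 and 62.2 for stellate cells. Most of the biliary sums is the keratin genes krt8 (577 and 1444) and krt18 (418 and 926). The keratin gene krt4 (69.4 and 160) is in both the skin and the biliary list, so these 2 sums are not independent. The 4 measured endothelial markers differed little, with sums of 23.4 and 24.2. In a bulk sample, fewer cells of a type and less RNA per cell cannot be told apart.

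Most pathway genes had low values in the UHRF1-high liver. Ranked among all genes, the median member lay at percentile 30.8 in library A and at percentile 32.3 in library B. Of the 128 members, 79 had a mean deposited value of at least 1, the filter used for differences, against 8386 of all 11021 genes. The remaining 49 are accounted for below by role. Just outside that filter lay met with a mean of 0.905 and inhbb with 0.925, and just inside lay wnt2bb with 1.02 and tgfbr1b with 1.07. Only 15 members had a mean of at least 10, against 3733 of all 11021 genes. Above the 50th percentile in both libraries lay 28 members, against 5026 of all genes. Among the 15 are 4 of the genes that match a pathway name by letters only.

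**Figure D1:**
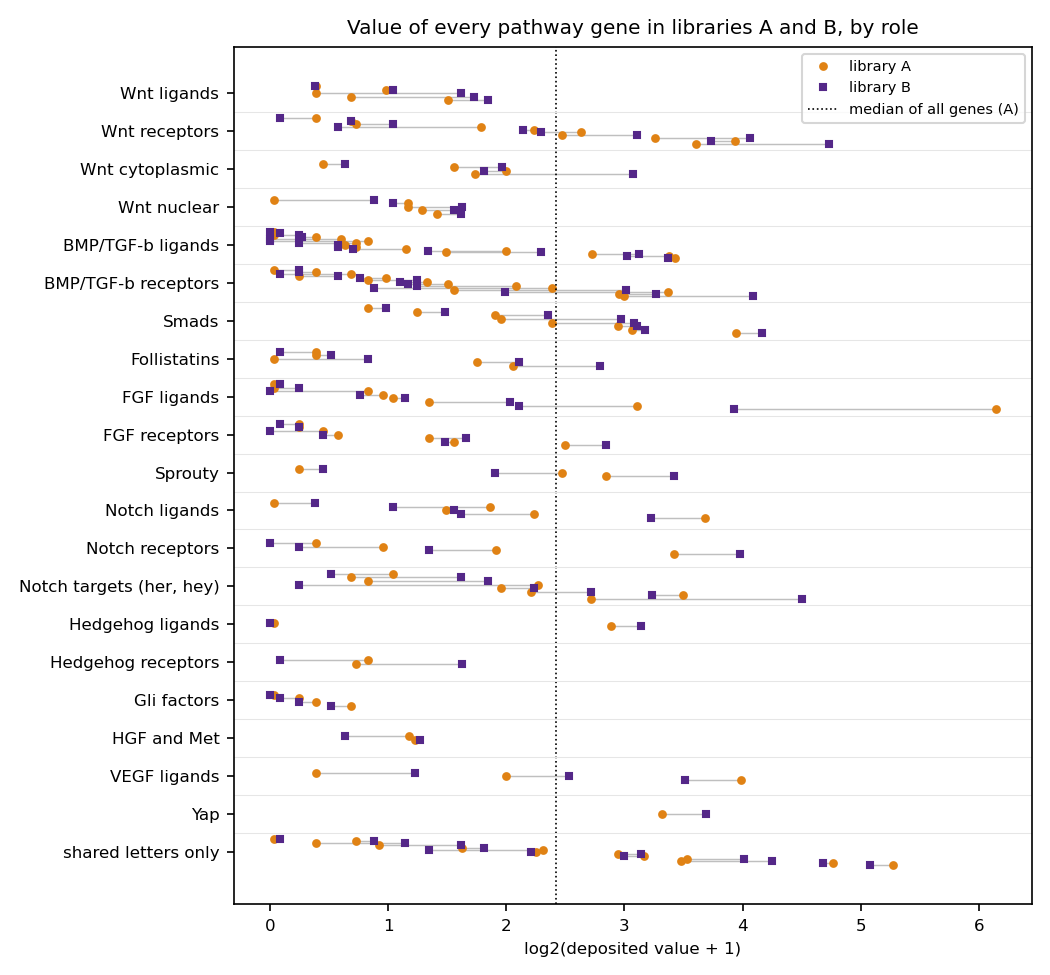
Deposited values of all 128 genes on a log2(value + 1) axis, grouped by role; circles are library A, squares library B, and a line joins the 2 values of 1 gene. The dotted line is the median of all genes in library A (4.36 as a deposited value), and most pathway genes lie to its left.

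Low values were coarse. In library A, 54 members had a value under 1, and these took only 13 distinct values. In library B, 49 members had a value under 1, in 16 distinct values. Of all 11021 genes, 2741 were under 1 in A, in 41 distinct values, and 2731 in B, in 67. At 0.304 in A lay 11 members, among them gli3, notch1b, tgfb2, wnt5b and fzd10, a value that 361 of all genes shared. The genomic spans of these 11 members run from 2305 to 291529 bases. In A, 12 members shared the lowest value of the library, 0.0203, and in B 8 members were listed at 0. Of all genes, 694 had that value in A and 449 were at 0 in B. Both sets of members hold the ligand gene shha, the activin subunit gene inhbaa and the transcription factor gene gli2b. Differences between the libraries were read only for members with a mean of at least 1. Some of these had such a low value in 1 library, among them wnt11r, wnt4a, her8a, her15.2, lrp5 and acvr1b. The sizes of their differences rest on a coarse value.

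Between the libraries, most members with a mean of at least 1 differed by less than 2-fold. At least 2-fold higher in A were 5 of the 79 members, or 6.33%, against 7.07% of all genes that passed the filter. At least 2-fold higher in B were 9 of 79, or 11.4%, against 6.83% of all genes. Among these calls, lrp5, acvr1b, her15.2, wnt11r, wnt4a and her8a were under 1 in 1 library and passed the filter through the other. The share towards A was near that of all genes, and the share towards B corresponds to a few genes more. The median difference of the 79 members was -0.23 on the log2 scale, against -0.02 over all genes, and 49 of the 79 were higher in B, against 4281 of 8386 genes. By level, 3 of 42 members with a mean from 1 to under 4 were at least 2-fold higher in B, against 7.93% of genes at that level, and 3 of 42 in A, against 6.16%. From 4 to under 16, 5 of 33 members were, against 6.3% of genes, and 1 of 33 was at least 2-fold higher in A, against 5.93%. Of the 4 members with a mean of 16 or more, 1 was higher in A, against 9.13% of genes, and 1 in B, against 6.39%. With a pseudocount of 10 in place of 1, a single member stayed at least 2-fold apart in each direction, fgf19 towards A and her9 towards B. That is 1.27% of the members each way, against 2.24% of all genes towards A and 1.6% towards B.

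**Figure D2:**
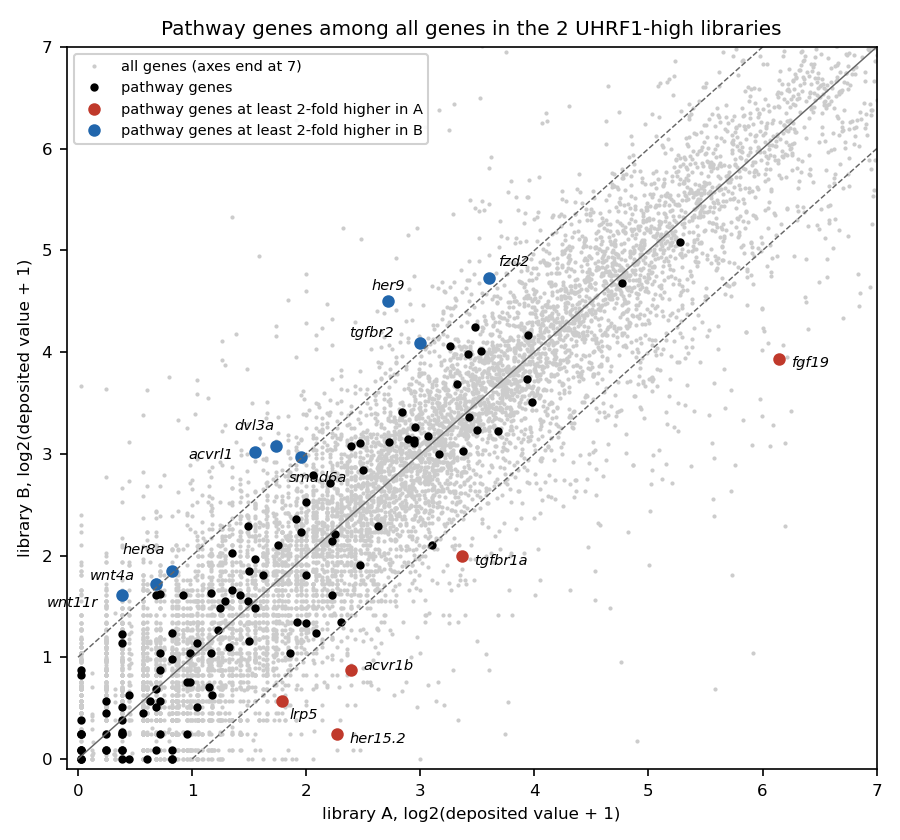
Library B against library A, both as log2(deposited value + 1), for all genes (grey) and the pathway genes (black). The 5 genes at least 2-fold higher in A (red) and the 9 higher in B (blue) are named; the solid line marks equal values and the dashed lines a 2-fold difference.

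Wnt ligands were low. The highest of the 5 was wnt2ba (chromosome 6, 48194043 to 48212294, Zv9), with 1.83 in A and 2.60 in B. Its sister gene wnt2bb, which is needed for liver specification in the zebrafish embryo, had 0.976 and 1.06. The values of both differed little between the libraries. The ligand gene wnt11r had 0.304 in A and 2.06 in B, and wnt4a had 0.609 and 2.30. Each was at least 2-fold higher in B, by 2.34-fold and 2.05-fold with 1 added to each value. Each passed the filter through its value in B. The ligand gene wnt5b had 0.304 in both and stayed under the filter.

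Among Wnt receptors the frizzled genes fzd2 and fzd7a and the co-receptor gene lrp6 had the highest deposited values. The gene fzd2 (chromosome 3, 31758770 to 31761144) had 11.2 in A and 25.5 in B (mean 18.3 ± 10.1) and was 2.18-fold higher in B. The frizzled genes fzd7a (8.59 and 15.7) and fzd7b (4.55 and 7.63) were higher in B too, by less than 2-fold. Stellate and muscle markers were higher in B as listed above, and their part in the values of the frizzled genes was not tested. The co-receptor gene lrp6 had 14.3 and 12.3, a mean of 13.3 ± 1.41, so it differed little. Its relative lrp5 had 2.45 in A and 0.488 in B, 2.32-fold higher in A with 1 added to each value. It passed the filter through its value in A. The gene fzd5 had 5.20 and 3.89 and fzd8a 3.69 and 3.40, while fzd3b, fzd9b and fzd10 had means under 1.

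Inside the cell, the Dishevelled gene dvl3a, which relays the signal from Frizzled, had 2.32 in A and 7.43 in B, a 2.54-fold difference. The other Dishevelled gene measured, dvl2, had a mean under 1. The destruction complex scaffold gene axin1 had 2.996 and 2.51. The scaffold gene axin2, itself a common transcriptional target of Wnt signalling, had 1.93 and 2.89. The nuclear partners of β-catenin were all low. The highest mean among them was that of lef1, with 1.67 in A and 2.06 in B, and tcf7l2 had 1.44 and 1.94. None of the 4 that passed the filter differed 2-fold, too few genes to set against the 13.9% of all genes, and tcf7 did not pass.

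The list of other Wnt pathway genes had 32 measured genes, of which 24 passed the filter. At least 2-fold higher in A was 1 of them, gsk3b (6.63 and 2.75), the kinase that marks β-catenin for destruction. At least 2-fold higher in B were 5, and the shares over all genes were 7.07% towards A and 6.83% towards B. The secreted Wnt inhibitor gene wif1 had 20.4 in A and 43.1 in B, and the inhibitor genes dkk3 and dkk1b had 6.12 and 17.2, and 0.487 and 2.84. The gene dkk1b passed the filter through its value in B. The Wnt secretion gene wls had 2.59 and 7.13, and the Groucho co-repressor gene gro2 had 3.63 and 9.62. The β-catenin genes did not differ 2-fold: ctnnb1 had 70.6 and 51.3, and ctnnb2 had 36.8 and 53.6, so they differed in opposite directions.

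Of the 15 BMP, TGF-β and activin ligand genes, 5 passed the filter and none differed 2-fold. These 5 are too few to set against the 13.9% of all genes. Among these ligands the highest mean was that of tgfb3 (chromosome 17, 52587615 to 52620475), at 9.75 in A and 9.30 in B, or 9.53 ± 0.317. The gene bmp2a had 9.37 and 7.13, and bmp16 had 5.61 and 7.69. All of these differed by less than 2-fold. The gene bmp6, whose product in mammals induces hepcidin in hepatocytes, had 1.81 in A and 3.89 in B. With 1 added to each value, bmp6 was 1.74-fold higher in B. The gene tgfb1a went the other way with 2.996 and 1.53. The genes bmp2b, bmp3, bmp4, bmp7a, bmp7b, bmp10, bmp15, tgfb2, inhbaa and inhbb had means under 1.

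Of the 14 pathway genes at least 2-fold apart, 4 were receptors of this family, 2 in each direction; 9 of its 14 receptor genes passed the filter, and 13.9% of all genes were at least 2-fold apart. The activin and Nodal type I receptor gene acvr1b (chromosome 23, 28043297 to 28063485) had 4.24 in A and 0.833 in B. It was 2.86-fold higher in A and passed the filter through its value in A. The gene acvrl1 (chromosome 23, 28076328 to 28097593), whose product Alk1 is a BMP receptor of endothelial cells, had 1.93 in A and 7.08 in B, 2.75-fold higher in B. These genes are neighbours, 12.8 kb apart, and their values ran in opposite directions. Of the 4 measured endothelial markers none differed 2-fold, with kdrl at 7.06 and 8.20 and cdh5 at 1.67 in both. Their part in the acvrl1 value was not tested.

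The TGF-β receptor genes were also split. The type I receptor gene tgfbr1a had 9.30 in A and 2.98 in B, 2.59-fold higher in A. The type II receptor gene tgfbr2 (chromosome 16, 42171656 to 42237364) had 6.997 in A and 15.98 in B, 2.12-fold higher in B. A TGF-β signal needs a type I and a type II receptor together, and their order differed between the libraries. Stellate and leukocyte markers were higher in B, and their part in the tgfbr2 value was not tested. Of the BMP type I receptor genes, acvr1l, the zebrafish Alk8 gene, had 6.75 and 8.61, and bmpr1aa had 3.24 and 1.36. The type II genes bmpr2a, bmpr2b and acvr2b had means under 1, as did bmpr1ab and bmpr1bb, while acvr2aa had 1.83 and 1.24.

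The 8 Smad genes had a median percentile of 45.4 in A and 59.9 in B by deposited value, with no account of length; the 15 ligand genes had 19.7 and 15.9. The highest was smad5, one of the Smads that BMP receptors activate, at 14.4 in A and 17.0 in B (mean 15.7 ± 1.85.) The other BMP Smad genes were smad1 (4.24 and 7.45) and smad9 (2.75 and 4.12). The activin and TGF-β Smad genes smad2 (6.71 and 7.59) and smad3b (1.36 and 1.79) differed less than smad1 and smad9, as did smad5. On the log2 scale, smad5 (-0.23) lay between smad2 (-0.16) and smad3b (-0.24). The inhibitory Smad gene smad6a, a feedback target of BMP signalling, had 2.88 in A and 6.85 in B, which is 2.02-fold, while the inhibitory smad7 had 7.36 and 8.02. The 7 Smads that passed the filter were all higher in B, 6 of them by less than 2-fold, and smad3a did not pass. Regardless of direction, the median size of their log2 differences was 0.24, against 0.39 over all genes. For comparison, 49 of the 79 members and 4281 of 8386 genes were higher in B.

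Other genes of the BMP and TGF-β pathways had a median difference of -0.76, against -0.24 for the Smads. The list of other BMP and TGF-β pathway genes had 25 measured genes, 11 above the filter, of which 4 were at least 2-fold higher in B and 1 in A, against 6.83% and 7.07% of all genes. The inhibitor of differentiation gene id1, a direct BMP target in many cell types, had 75.02 in A and 249 in B, 3.29-fold higher in B. The id1 relatives id2a (38.1 and 81.8) and id3 (40.3 and 79.9) were also higher in B, id3 just short of 2-fold. The hepcidin gene hamp2 had 20.2 in A and 46.7 in B. The pseudoreceptor gene bambia, an inhibitor of BMP receptors, had 18.0 and 46.8. Its paralog bambib had 4.24 and 1.67, 1.96-fold higher in A with 1 added to each value. Of the 11 genes above the filter, 4 were higher in A and 7 in B, against 4077 and 4281 of 8386 genes. The gene smurf2, whose product marks Smads and receptors for breakdown, went the other way with 3.95 and 0.965, and passed the filter through its value in A. Muscle, skin, leukocyte and biliary markers were higher in B as well, and their part in these values was not tested.

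**Figure D3:**
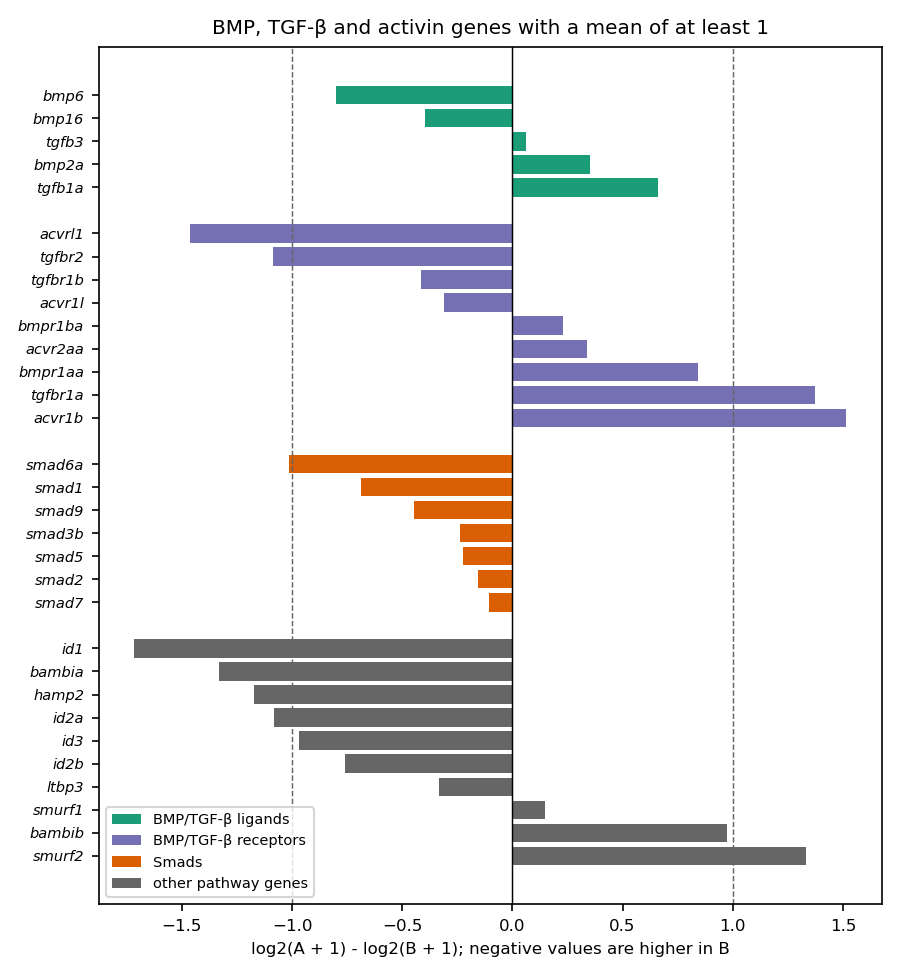
Difference between libraries A and B, as log2(A + 1) minus log2(B + 1), for the BMP, TGF-β and activin genes with a mean of at least 1 that are reported here; bars to the left are higher in B and dashed lines mark 2-fold. The 7 Smad bars all point to B, the receptors point both ways, and id1 has the longest bar. The median size of the Smad differences was 0.24, against 0.39 over all genes. Over all genes 4281 of 8386 were higher in B.

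Follistatins bind and block activins. The genes fsta and fstb, and the activin-binding fstl3, had means under 1. The follistatin-like genes fstl1a (2.36 and 3.30) and fstl1b (3.17 and 5.92) passed the filter and were higher in B by less than 2-fold.

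The FGF family held the pathway gene with the highest mean and, with a pseudocount of 1, the largest difference. With a pseudocount of 0.1, her15.2 (3.79 on the log2 scale) and wnt11r (-2.41) lay beyond this FGF gene (2.28). The ligand gene fgf19 (chromosome 7, 54609452 to 54612673) had 69.7 in A and 14.3 in B, which gives 42.0 ± 39.2 as the mean. It ranked 978th of all genes in A and 2969th in B, and was 4.64-fold higher in A. In mammals its counterpart is a hormone of the ileum that represses bile acid synthesis in the liver through Fgfr4. Exocrine pancreas markers were higher in A as well, with a ratio of summed values of 9.23, as was the insulin gene ins, at 46.8 in A and 0.609 in B. Of the 3 intestinal markers, fabp2 had 115 and 151, vil1 had 1.81 and 1.40, and cdx1b had 0.183 and was listed at 0 in B. Their part in the fgf19 value was not tested. The neighbouring gene fgf4, 17.2 kb away, had 0.772 in A, and B lists it at 0.

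The other FGF ligands were low or act inside the cell. The genes fgf13a and fgf13b encode FGF homologous factors, which bind sodium channels rather than FGF receptors. They differed in opposite directions, fgf13b with 7.59 in A and 3.30 in B, and fgf13a with 1.55 and 3.08. The gene fgf20b had 1.06 and 1.21, and fgf1a, fgf4, fgf6a and fgf10a had means under 1.

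Of the FGF receptors, fgfr2 had the highest mean, with 4.65 in A and 6.16 in B. The gene fgfr4, the main FGF receptor of mammalian hepatocytes, had 1.93 and 1.79, so its value hardly differed while that of fgf19 did. The decoy-like receptor gene fgfrl1a had 1.55 and 2.16, and fgfr1a, fgfr1b, fgfr3 and fgfrl1b had means under 1. The Sprouty genes encode feedback inhibitors of receptor tyrosine kinases. Among them spry2 had 6.16 and 9.67, spry4 had 4.55 and 2.75, and spry1 was under the filter. None of the 20 other FGF pathway genes above the filter, of 25 measured, differed 2-fold, against 13.9% of all genes. The highest on this list, cnpy1, had 23.9 and 35.9, and the kinase gene mapk3 had 28.1 and 26.6. Among the FGF target genes, dusp6 had 8.40 in A and 16.8 in B, etv4 had 2.93 and 1.79, and etv5b had 6.83 and 5.95.

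None of the 4 Notch ligand genes and 2 receptor genes above the filter differed 2-fold between the libraries. These are too few genes to set against the 13.9% of all genes. With a pseudocount of 0.1, the difference of the ligand gene jag1b was 1.24 on the log2 scale, more than 2-fold. The ligand gene dlc (chromosome 15, 19425101 to 19429958) had 11.8 in A and 8.32 in B (mean 10.1 ± 2.48.) The arterial ligand gene dll4 had 3.69 and 2.06. The Jagged genes, which in mammals direct bile duct formation, had 2.63 and 1.06 for jag1b and 1.81 and 1.94 for jag2, while jag1a was under the filter. Of the 4 ligand genes that passed the filter, 3 had the higher value in A, against 4077 of 8386 genes. The receptor gene notch2, which in humans is mutated in some patients with bile duct paucity, had 9.67 in A and 14.8 in B (mean 12.2 ± 3.62.) The gene notch3 had 2.77 and 1.55, and notch1a and notch1b had means under 1.

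The her genes encode repressors of the Hairy and Enhancer of split family, several of which are Notch targets. The gene her9 (chromosome 23, 23693665 to 23695390) had 5.57 in A and 21.7 in B (mean 13.7 ± 11.4), and was 3.46-fold higher in B. The biliary and progenitor gene sox9b was also higher in B, with 8.59 and 24.0. So were the keratin genes krt8 (577 and 1444) and krt18 (418 and 926) of the biliary list, whose cell type in these livers was not assessed. Another gene of that list, alcama (3.16 and 5.04), did not differ 2-fold. The part of these genes in the her9 value was not tested. By contrast her6 had 10.3 and 8.41, a mean of 9.34 ± 1.33. The gene her8a had 0.772 and 2.60 and was 2.03-fold higher in B, and her11 had 0.609 and 2.06. Both passed the filter through their values in B. The gene hey1 was under the filter.

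A cluster of her genes on chromosome 11 gave a value that is uncertain. The gene her15.2 had 3.82 in A and 0.183 in B, 4.08-fold higher in A with 1 added to each value. It passed the filter through its value in A. Its tandem copy her15.1, 11.0 kb away, had 3.62 and 5.57. Reads of such copies may be split between them in counting. The summed value of the pair was 7.44 in A and 5.75 in B, a difference of 0.32 on the log2 scale. The third gene of the cluster, her2, had 2.88 and 3.69. Against 13.9% of all genes, 1 of the 18 other Notch pathway genes above the filter differed 2-fold, sox9b. The highest of these, the γ-secretase subunit genes aph1b (32.6 and 48.1), psenen (30.1 and 32.6) and psen2 (17.4 and 27.4), encode parts of the enzyme that cleaves Notch.

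Of the 8 Hedgehog members, 2 passed the filter, the ligand gene ihha and the transducer gene smo. The gene ihha (chromosome 9, 7400235 to 7408787) had 6.40 in A and 7.83 in B (mean 7.12 ± 1.01.) The gene smo, for the protein that passes the signal into the cell, had 0.651 and 2.08. The 4 Gli genes, which encode the nuclear factors of this pathway, were all under the filter, and the highest of them, gli2a, had 0.609 and 0.426. In the list of other Hedgehog pathway genes, the Hedgehog-binding protein gene hhip had the highest mean, with 10.1 and 11.5. Of the 10 genes of this list above the filter, gas1b (1.14 and 3.51) was the 1 gene that differed 2-fold, towards B, against 6.83% of all genes.

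The growth factor genes vegfab and hgfa differed by less than 2-fold. The gene vegfab (chromosome 4, 5460408 to 5471096), for a ligand that drives vessel growth, had 14.8 in A and 10.4 in B (mean 12.6 ± 3.12.) The lymphatic growth factor gene vegfc had 2.996 and 4.77, and vegfaa had a mean under 1. The hepatocyte growth factor gene hgfa had 1.34 and 1.40, and the gene for its receptor, met, had 1.26 and 0.549. The Hippo pathway effector gene yap1 (chromosome 18, 35623585 to 35695491) had 8.998 and 11.9, a mean of 10.5 ± 2.06. Of 24 other genes of these pathways above the filter, 1 differed 2-fold, against 13.9% of all genes. It was spint1a, for an inhibitor of the protease that activates HGF, with 1.40 in A and 6.41 in B. Its relative spint2 had 21.9 and 40.6, and krt4 and krt5, skin markers, were higher in B as well (69.4 and 160, and 24.1 and 97.4). Their part in the spint1a value was not tested.

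Pooled over the 6 lists of pathway genes outside the symbol rule, 107 of 154 measured genes passed the filter. At least 2-fold higher in A were 2 of them (1.87%), and in B 12 (11.2%), against the 7.07% and 6.83% of all genes. Their median difference was -0.19. With a pseudocount of 10, id1 and bambia were the 2 genes of these lists still at least 2-fold higher in B, and 0 were in A. Over all genes the shares at that setting were 1.6% in B and 2.24% in A. By kind, 19 of the 24 intracellular transducers and nuclear factors among the members were higher in B, and of the ligands and receptors 11 of 20 and 11 of 22 were. Over all genes 4281 of 8386 were higher in B, and the difference between these kinds was not tested.

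Zebrafish carry duplicate copies of many genes, and 22 pairs of members had symbols that differ only in a final a or b. In 16 pairs at least 1 copy passed the filter, and in 15 of these the same copy had the higher value in both libraries. Where only 1 copy passed, the filter itself favours this outcome. Other gene pairs were not counted, so there is no share over all genes to set beside it. Of the 6 pairs with neither copy above the filter, 4 had the same copy higher in both libraries. The 16 include 3 pairs that match a pathway name by letters only. Among the 15 are vegfab over vegfaa (0.304 and 1.34), bmp2a over bmp2b (0.549 and 0.487) and jag1b over jag1a (0.0203 and 0.304). An order between copies may include a difference in transcript length. In 7 pairs both copies passed the filter, and in 4 of these both differed between A and B in the same direction, fzd7a with fzd7b among them. The pairs tgfbr1a with tgfbr1b, fgf13a with fgf13b and tcf7l1a with tcf7l1b went in opposite directions. Of these, tgfbr1b had a value under 1 in A (0.772), and both tcf7l1 copies had 1.24 in A.

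**Figure D4:**
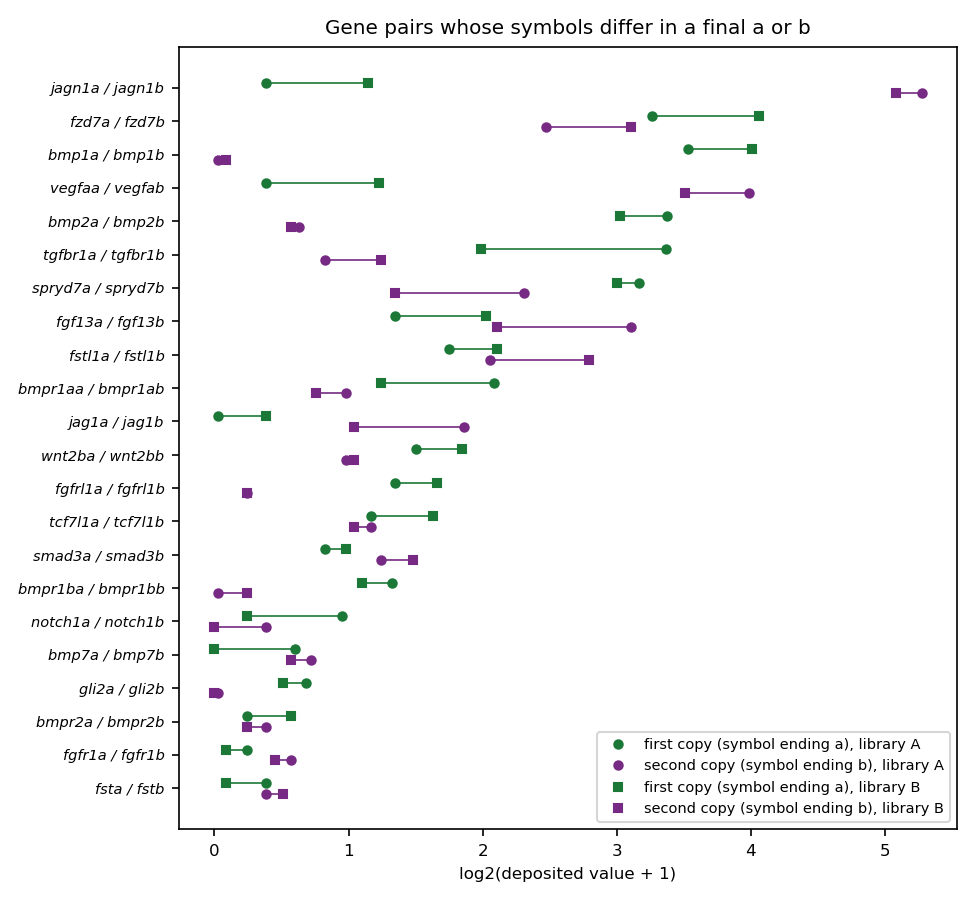
Values of the 22 pairs of members whose symbols differ in a final a or b, as log2(deposited value + 1); green is the first copy, purple the second, circles are library A and squares library B. In 15 of the 16 pairs with a copy above the filter, the same copy is higher in both libraries, which the filter favours where only 1 copy passes.

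The symbol rule also took in 13 genes that match by letters but do not encode the family member those letters name, 10 of them above the filter. The gene jagn1b, for a Jagunal protein of the endoplasmic reticulum, had 37.7 in A and 32.8 in B (mean 35.2 ± 3.43.) The SPRY domain gene spryd4 had 26.2 and 24.7, or 25.5 ± 1.08. The gene fgfr1op2 had 10.1 and 18.0, and the procollagen protease gene bmp1a 10.6 and 15.099. None of the 10 differed 2-fold, against 13.9% of all genes, although spryd7b, with 3.95 and 1.55, came close. The 10 genes are few for this comparison. The others above the filter were fgfr1op, bmp2k, spryd3, spryd7a and tgfbi, and bmp1b, jagn1a and tgfbrap1 had means under 1.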

How the data were processed

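Polyadenylated RNA of zebrafish livers at 5 dpf was sequenced after bead selection and chemical fragmentation, per the labels' protocols. The authors deposited 1 table of quantile-normalised signal values, per its name, with symbols and spans for 11021 genes. CASAVA 1.7 and the build Zv9 (danRer7) are named in the submitters' processing notes. For the counting method, the annotation and the starting unit, nothing is stated in the sources used, and depth is unknown. Columns were matched to UHRF1-high A and B by title; 0 other per-sample columns were left unused. Starts are printed counted from 1.

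With Python 3.11.15 and pandas 2.3.3, members were found by symbol; 121 symbols are current in RefSeq (GRCz12tu) and 7 are older symbols. Differences used log2(value + 1) over genes whose mean was at least 1. This calculation was tested on simulated data, with shifts larger than 2-fold placed only in genes with a mean of 16 or more. Of the 79 members above the filter, 4 reach that level. The simulation therefore does not cover detection of differences near 2-fold or in lower genes. No group test was made, because 1 group was analysed; the planned limma fit was not run.

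The members, the 21 role groups, the 6 pathway lists and the 12 marker lists were chosen with earlier results of these data known. Named genes were the 15 highest members, the 10 most different in each direction, the highest of each role group and the 3 highest of each pathway list. Other members are named to account for the 128; the values of 1 member and 1 list gene are not reported here, though the counts include them. List genes at least 2-fold apart, and others named outside this rule, were named after their values were seen. The list symbols taz (an older symbol of tafazzin) and hfe2 were left out, 2 in all.

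Markers of endocrine pancreas had summed values of 58.6 in A and 5.89 in B (sst2 was listed at 0 in B). Intestine markers had sums of 117 and 152 (cdx1b was listed at 0 in B). Sums were 1310 and 2123 for erythrocytes, 2.11 and 7.87 for notochord and cartilage, and 256836 and 243153 for hepatocytes. Most of each hepatocyte sum is apoa1b (130650), apoa2 (73737.3) and fabp10a (29654.5), which quantile normalisation gives the same values in both libraries. The hepatocyte sums therefore had to be close and do not compare the hepatocyte signal of A and B.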

Additional observations from a re-analysis of the deposited data

How the results depend on the processing

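The pseudocount and the filter set how many members count as 2-fold apart, because most values are low. With a pseudocount of 0.1, 9 members were at least 2-fold higher in A and 13 in B, in place of 5 and 9. Those are 11.4% and 16.5% of the members, against 10.6% and 10.2% of all genes at that setting. A smaller pseudocount can only enlarge each difference, so all 14 members had to stay at least 2-fold apart. With a pseudocount of 10 there was 1 member in each direction, against 2.24% of all genes towards A and 1.6% towards B. Raising the filter to a mean of 10 left 15 members, 1 of them at least 2-fold higher in A and 3 in B. Over all genes above that filter the shares were 8.57% and 6.38%. Without a filter and with median scaling the counts stayed within 1.5 times. The median difference of the members (-0.23) ran from -0.37 with the filter at 10 to -0.06 without a filter. The median percentile of the members was 31.1 over both libraries, between 30.8 and 32.3 with either library left out, and 28.9 without 16 look-alike names (the 13 and the 3 fstl genes). Of 59 named genes, 46 moved by less than the typical SD between the libraries with a pseudocount of 0.1. With 10, 34 did, and with median scaling 59 did. A change of pseudocount cannot reverse a difference, so it does not test direction. Of 20 role group medians, 18 moved by less than that SD with a pseudocount of 0.1, 14 with 10 and 13 without a filter. Of the 12 counts for the other pathway lists, 7 stayed within 1.5 times with a pseudocount of 0.1 and 5 with 10. No paired analysis was possible because the value columns cover 1 group. Depth, and so counting error, is unknown.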
